A study of Mus musculus with 6 samples.

Results

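The genes described here belong to enzyme families that exchange or remove the fatty acyl chains of membrane phospholipids. By gene symbol, 10 of them were taken: Lpgat1, Lpcat1, Lpcat2, Lpcat3, Lpcat4, Mboat1, Mboat2, Mboat7, Pla2g6 and Pla2g12b. Pla2g12b lacks the enzyme activity of its family but is counted with the enzymes below. Each of the 10 had 1 probe set with a single gene symbol, so all 10 are among the 18820 genes measured. The rule used symbols only, although the set was proposed with earlier results of these data known. Expression was measured on Affymetrix arrays in snap-frozen liver of mice on the C57BL6 background at 2 months of age. The 2 groups were 4 Pcyt2+/- mice (replicates 1 to 4), which carry 1 altered and 1 intact allele by the genotype label although their titles call them knock-outs, and 2 wild type mice (replicates 3 and 4), each mouse with its own array. The sources used here do not give the sex of the mice, their feeding state or the kind of Pcyt2 allele.

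Phospholipids are first made by the Kennedy pathway, in which Pcyt2 makes the CDP-ethanolamine used for phosphatidylethanolamine. Afterwards a phospholipase can remove an acyl chain, and a lysophospholipid acyltransferase can put another one in its place, a turnover known as the Lands cycle. The acyltransferases fall into a family related to the AGPAT enzymes (Lpgat1, Lpcat1, Lpcat2, Lpcat4) and a membrane-bound O-acyltransferase family (Lpcat3, Mboat1, Mboat2, Mboat7). In liver this cycle sets how much polyunsaturated chain the membranes hold, and the work of Lpcat3 in mouse liver is known for its role in loading lipid onto secreted lipoproteins.

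All values are log2 expression, and differences are Pcyt2+/- minus wild type. Array medians all lay at 4.40, and 792 genes (4.21%) had a mean above 5. Of the 10 enzymes only Lpcat3 was above 5, and only Lpcat3 and Pla2g12b were above 4.6, so 8 lay close to the array medians. Odorant and vomeronasal receptor genes, 1155 genes with little use in liver, had a median of 4.24 and a 95th percentile of 4.43, and 4 enzymes (Lpcat2, Lpcat4, Mboat1 and Mboat2) had means below that percentile. Probe sets differ in how strongly they bind, so these values place the signals on the array and do not rank transcript amounts between genes. The hepatocyte markers were bright (5 of 5 measured had means from 11.0 to 12.3). No marker of Kupffer cells and macrophages (10 measured, means from 4.28 to 4.61) was above 5. Pcyt2, the gene altered in these mice, had 4.638, 4.657, 4.669 and 4.604 on the Pcyt2+/- arrays and 4.887 and 4.796 on the wild type arrays, a difference of -0.20 (limma adjusted p = 0.264).

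The comparison asked whether these enzymes differ in Pcyt2-deficient liver. Lpgat1 was lower on each Pcyt2+/- array than on either wild type array, but the difference was small, 1.05-fold on the deposited scale. The other 9 differed by less than 0.06 on the log2 scale, 4 of them lower and 5 higher in Pcyt2+/-. With Lpgat1 this made 5 lower and 5 higher means, beside 51.9% lower and 48.1% higher means over all genes. None of the 10 passed limma with Benjamini-Hochberg adjustment over all genes (adjusted p from 0.511 to 0.997), where 0 of 18820 genes (0%) were called. At an unadjusted p under 0.05, 1 of the 10 was lower and 0 were higher, against 3.44% lower and 1.86% higher among all genes (998 genes, 5.3%, in both directions), and limma with a trended and robust prior called 9 genes but none of the 10. The median difference over the 10 was 0.0050, beside -0.00073 over all genes. In bulk liver, fewer cells of a type and less RNA per cell cannot be told apart.

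**Figure D1:**
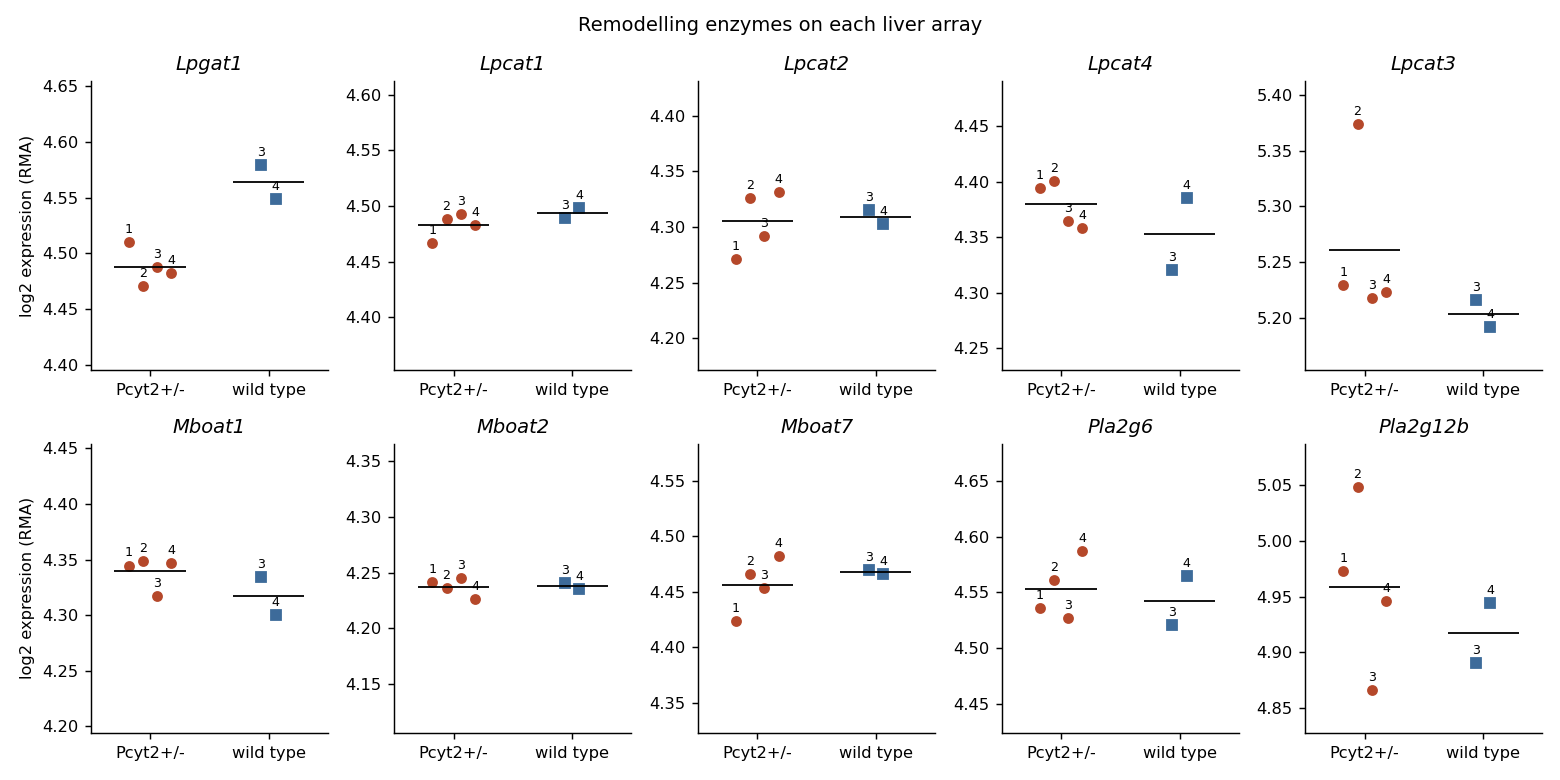
Log2 expression (RMA, vertical axis) of the 10 enzymes on each array, with Pcyt2+/- as circles on the left and wild type as squares on the right of each panel; numerals beside the points are replicate numbers, horizontal lines are group means, and every panel spans the same height. Lpgat1 runs from 4.471 to 4.510 in Pcyt2+/- and from 4.549 to 4.579 in wild type, a gap of 0.039. Ranges did not overlap for 12.8% of all genes. For Lpcat3, 1 Pcyt2+/- array stands high.

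Lpgat1 encodes an acyltransferase of the endoplasmic reticulum that was first studied with lysophosphatidylglycerol and in mice is known to place stearate in phosphatidylethanolamine and phosphatidylcholine. Pcyt2+/- replicates 1 to 4 had 4.510, 4.471, 4.487 and 4.482, while wild type replicates 3 and 4 had 4.579 and 4.549. The ranges did not overlap, and the gap between the nearest arrays was 0.039. The means were 4.49 ± 0.016 (SD, n = 4) in Pcyt2+/- and 4.56 ± 0.021 (SD, n = 2) in wild type, which differ by -0.076 (SE 0.015, 95% interval -0.11 to -0.041). By limma the unadjusted p was 0.0014, the 50th smallest of all genes, and the adjusted p was 0.511. Exact permutation of the group labels (two-sided, 15 ways to place them) gave p = 0.0667, the smallest p that 4 against 2 arrays allow, so that test cannot reach 0.05. With each array left out in turn the difference ran from -0.092 (without wild type replicate 4) to -0.061 (without wild type replicate 3).

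The signal of Lpgat1 stood only slightly above the middle of the array. After subtraction of each array's median on the linear scale, 1.31 ± 0.26 units were left in Pcyt2+/- (SD, n = 4) and 2.54 ± 0.29 units in wild type (SD, n = 2). All 4 Pcyt2+/- arrays were then below the minimum of 2 units that was set before taking log2, while both wild type arrays were above it. The log2 difference of -0.34 in that setting (adjusted p = 0.451 by limma) is therefore one against that minimum. What share of the Lpgat1 signal is background was not tested.

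Probe sequences were not used here, and the RefSeq promoter windows of the build GRCm38.p6 (250 bases before and 50 after a start site) are shown for Lpgat1 because it had the lowest unadjusted p of the enzymes. It has 2 listed start sites on chromosome 1, plus strand, and both windows are rich in G and C (77.0% and 79.7%). The capitals mark the GC box GGGCGG on either strand, found 4 times in the upstream window, chr1:191717774-191718073, and 2 times in the downstream one, chr1:191718145-191718444.
Lpgat1 upstream start site: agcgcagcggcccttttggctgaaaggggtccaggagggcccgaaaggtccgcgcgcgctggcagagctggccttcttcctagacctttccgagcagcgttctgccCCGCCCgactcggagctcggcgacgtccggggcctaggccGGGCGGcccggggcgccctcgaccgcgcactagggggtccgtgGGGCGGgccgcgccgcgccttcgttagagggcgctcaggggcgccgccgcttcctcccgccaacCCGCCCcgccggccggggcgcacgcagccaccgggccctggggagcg
Lpgat1 downstream start site: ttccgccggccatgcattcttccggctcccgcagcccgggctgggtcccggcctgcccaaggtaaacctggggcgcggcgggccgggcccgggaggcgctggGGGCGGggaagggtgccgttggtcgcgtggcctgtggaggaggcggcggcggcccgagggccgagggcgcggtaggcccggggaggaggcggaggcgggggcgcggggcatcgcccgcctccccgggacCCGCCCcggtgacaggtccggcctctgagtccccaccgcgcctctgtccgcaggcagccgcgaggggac
This motif is common: 35.7% of the 32851 promoter windows in the table hold it on either strand, and 10 of the 11 windows of the enzymes do, all except that of Pla2g12b.

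The 3 other enzymes of the AGPAT-related family had group ranges that overlapped. Lpcat1, known in lung for making the dipalmitoyl phosphatidylcholine of surfactant, had 4.467, 4.488, 4.493 and 4.483 in Pcyt2+/- and 4.489 and 4.498 in wild type. Its difference was -0.011 (95% interval -0.038 to 0.016), and its arrays lay within 0.031 of each other. Lpcat2, which makes platelet-activating factor in inflammatory cells, had 4.271, 4.326, 4.292 and 4.331 in Pcyt2+/- and 4.315 and 4.303 in wild type, with the wild type values inside the Pcyt2+/- range and a difference of -0.0039 (interval -0.049 to 0.041). The mean level of the 10 macrophage markers ran from 4.44 to 4.47 in Pcyt2+/- and was 4.45 on both wild type arrays, with 4 markers lower, 6 higher and none at an unadjusted p under 0.05 by limma.

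Lpcat4, which acylates lysophosphatidylethanolamine and lysophosphatidylcholine, had 4.395, 4.400, 4.364 and 4.358 in Pcyt2+/- and 4.320 and 4.385 in wild type. The wild type arrays were further apart from each other than the 4 Pcyt2+/- arrays, and the value of wild type replicate 4 lay inside the Pcyt2+/- range. The difference of 0.027 (interval -0.024 to 0.078) was -0.0054 without wild type replicate 3 and 0.059 without wild type replicate 4, where its unadjusted p was 0.031 and its adjusted p 0.711 by limma.

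Among the membrane-bound O-acyltransferases, Lpcat3 was the 1 enzyme with a mean above 5. Lpcat3 puts linoleate and arachidonate into phosphatidylcholine and phosphatidylethanolamine, and in mouse liver it is a target of the oxysterol receptor LXR. In Pcyt2+/- replicates 1 to 4 its values were 5.229, 5.374, 5.218 and 5.223, and wild type replicates 3 and 4 had 5.216 and 5.191. The groups did not overlap, but by only 0.0020, where neighbouring values in the deposited table are 0.00098 apart. Pcyt2+/- replicate 2 stood above the other 3 Pcyt2+/- arrays, which lay between 5.218 and 5.229.

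The means of Lpcat3 were 5.26 ± 0.076 (SD, n = 4) in Pcyt2+/- and 5.20 ± 0.017 (SD, n = 2) in wild type. They differed by 0.057 (SE 0.045, 95% interval -0.049 to 0.16; limma adjusted p = 0.956), and by 0.020 without Pcyt2+/- replicate 2. In the two-sided exact permutation test its p was 0.40. Lpgat1 and Lpcat3 were the 2 of 10 enzymes with ranges that did not overlap, beside 12.8% of all genes (7.17% lower, 5.67% higher). Lpgat1 was on the lower side and Lpcat3 on the higher.

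**Figure D2:**
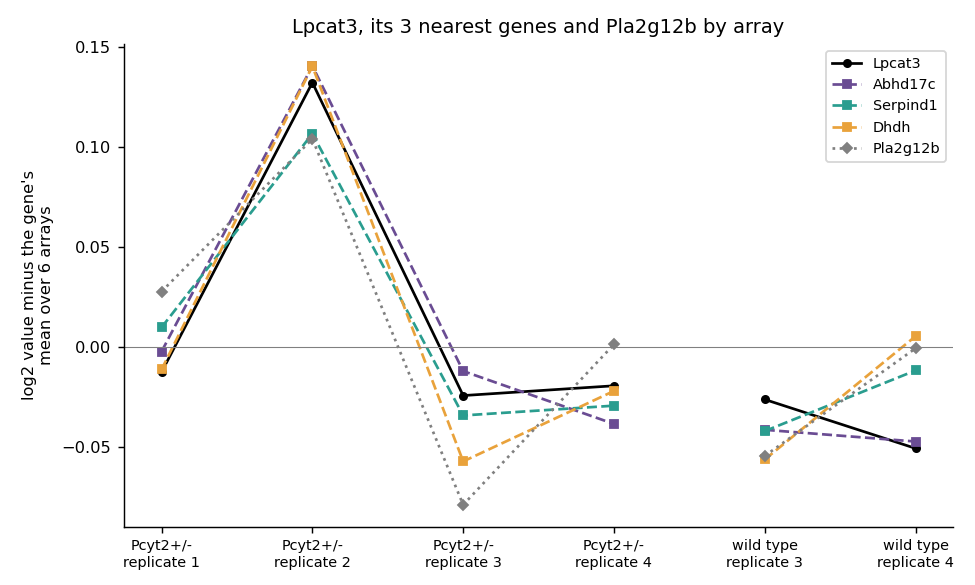
Log2 value minus the gene's own mean over 6 arrays (vertical axis) for Lpcat3, the 3 genes nearest to it and Pla2g12b, by array (horizontal axis, Pcyt2+/- replicates on the left). All 5 genes are highest on the array of Pcyt2+/- replicate 2, at 5.374 for Lpcat3 and 5.049 for Pla2g12b. For the 3 nearest genes this follows from their choice by likeness over these arrays.

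Genes nearest to Lpcat3 were picked by its pattern over the same 6 arrays. Their high values on the array of Pcyt2+/- replicate 2 therefore follow from the choice. Likeness was taken as the mean absolute difference of 2 genes' values over the 6 arrays, each gene centred on its own mean, among the 791 other genes with a mean above 5. The nearest to Lpcat3 was Abhd17c, a depalmitoylating enzyme, at 0.011, followed by Serpind1, heparin cofactor II, at 0.020 and Dhdh, a dihydrodiol dehydrogenase, at 0.022, beside a median of 0.076 over the 791. Abhd17c had 5.118, 5.261, 5.108 and 5.082 in Pcyt2+/- and 5.079 and 5.073 in wild type, and so was also highest on the array of replicate 2. Of the 10 enzymes, 4 (Lpcat3, Lpcat4, Mboat1 and Pla2g12b) were highest on that array, beside 16.5% of all genes and 15.3% of genes with a mean above 5. For Lpcat4 (4.400 against 4.395 on replicate 1) and Mboat1 (4.349 against 4.347 on replicate 4) the next Pcyt2+/- array was close.

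Mboat1 and Mboat2, which favour oleate and act on lysophosphatidylethanolamine, lay in the low band. Mboat1 had 4.345, 4.349, 4.317 and 4.347 in Pcyt2+/- and 4.334 and 4.300 in wild type, so that Pcyt2+/- replicate 3 lay between the wild type arrays. Its difference was 0.022 (interval -0.012 to 0.057), with 0.0054 without wild type replicate 4 and 0.040 without wild type replicate 3. Mboat2 had 4.241, 4.236, 4.245 and 4.227 in Pcyt2+/- and 4.240 and 4.235 in wild type, a spread of 0.019 over all 6 arrays and a difference of -0.00049 (interval -0.025 to 0.024). The signal of Mboat2 was within that of the chemoreceptor genes, 48.7% of which had a higher mean, so a change in its transcript may not have been detectable at this signal.

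Mboat7 puts arachidonate into phosphatidylinositol, and its loss from liver is known to cause steatosis in mice. Its values were 4.424, 4.466, 4.453 and 4.482 in Pcyt2+/- and 4.470 and 4.466 in wild type. Both wild type arrays fell inside the Pcyt2+/- range, and the difference was -0.011 (interval -0.051 to 0.028). Without Pcyt2+/- replicate 1, the lowest array, it was -0.00065.

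On the phospholipase side, Pla2g6, the calcium-independent phospholipase A2 that frees fatty acids from phospholipids, had 4.536, 4.562, 4.527 and 4.587 in Pcyt2+/- and 4.521 and 4.564 in wild type. The difference of 0.010 (interval -0.038 to 0.059) was -0.011 without wild type replicate 3 and -0.00081 without Pcyt2+/- replicate 4. Pla2g12b belongs to the secreted phospholipase A2 family but lacks the enzyme activity, and in mice it is known to be needed for filling lipoproteins with triglyceride. It had 4.973, 5.049, 4.866 and 4.946 in Pcyt2+/- and 4.891 and 4.944 in wild type. Its Pcyt2+/- arrays reached both above and below the wild type ones, with means of 4.96 ± 0.075 (SD, n = 4) in Pcyt2+/- and 4.92 ± 0.038 (SD, n = 2) in wild type. The difference was 0.041 (interval -0.068 to 0.15; limma adjusted p = 0.978), and 0.011 without Pcyt2+/- replicate 2.

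Promoter windows of Lpcat3 and Pla2g12b are shown because these were the 2 enzymes with means above 4.6 and both were highest on the same array. Lpcat3 lies on chromosome 6 (chr6:124662854-124663153, plus strand) and Pla2g12b on chromosome 10 (chr10:59403435-59403734, plus strand), both GRCm38.p6. The capitals mark the longest stretch that both windows share, 9 bases, which was found by comparing them and not searched for beforehand.
Lpcat3: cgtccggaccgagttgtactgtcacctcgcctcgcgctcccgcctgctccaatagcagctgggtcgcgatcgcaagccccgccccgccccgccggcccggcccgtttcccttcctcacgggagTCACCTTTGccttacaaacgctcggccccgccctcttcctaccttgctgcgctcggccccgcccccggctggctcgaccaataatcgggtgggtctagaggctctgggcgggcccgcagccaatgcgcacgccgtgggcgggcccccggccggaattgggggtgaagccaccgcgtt
Pla2g12b: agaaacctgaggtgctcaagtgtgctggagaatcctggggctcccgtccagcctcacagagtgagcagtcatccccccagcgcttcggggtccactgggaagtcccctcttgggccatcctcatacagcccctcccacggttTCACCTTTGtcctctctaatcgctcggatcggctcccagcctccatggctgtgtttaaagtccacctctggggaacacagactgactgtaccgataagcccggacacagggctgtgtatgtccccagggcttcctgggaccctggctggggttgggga
The stretch TCACCTTTG begins 127 bases before the start site in Lpcat3 and 108 bases before it in Pla2g12b. On either strand 0.438% of the 32851 windows hold it. Whether 2 such windows would share a stretch of this length by chance was not tested. The half-site AGGTCA of many nuclear receptors was in 0 of the 11 windows of the enzymes on either strand, beside 16.3% of all windows. A pair of it at the spacing bound by LXR, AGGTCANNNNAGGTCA, was also in 0 of the 11, beside 0.0152% of all windows.

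**Figure D3:**
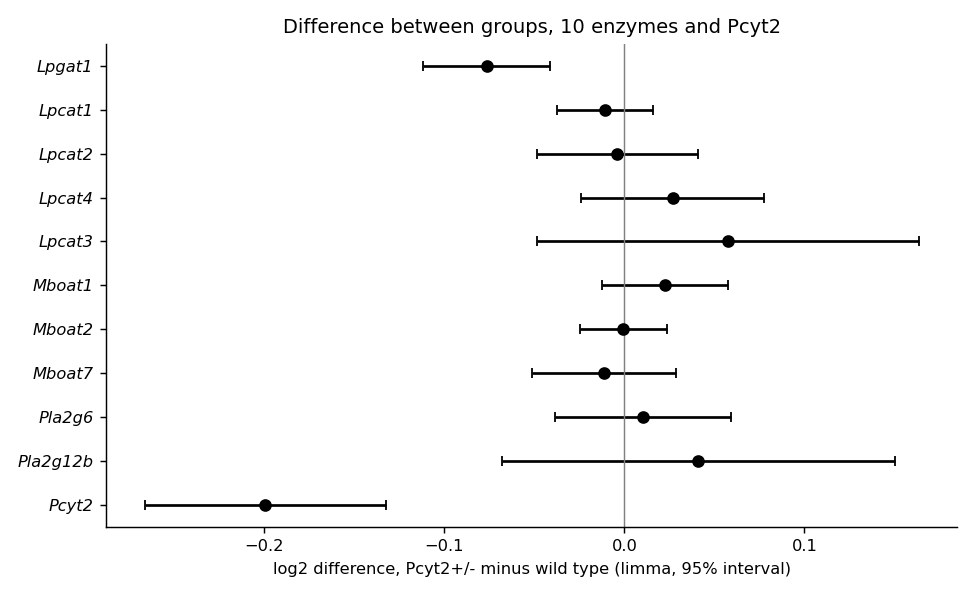
Log2 difference, Pcyt2+/- minus wild type (horizontal axis), with limma's 95% interval for the 10 enzymes and, in the lowest line, Pcyt2. The interval of Lpgat1 runs from -0.11 to -0.041, and those of the other 9 enzymes include 0.

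For the 9 enzymes other than Lpgat1, the intervals reached at most 0.16 from 0 on the log2 scale, the upper bound of Lpcat3, or 1.12-fold. These are bounds on the deposited signal, most of which lay near the array medians, and not on the amount of transcript. The SE ran from 0.010 (Mboat2) to 0.046 (Pla2g12b). The signs of Lpgat1, Lpcat1, Lpcat3 and Mboat1 were the same in every setting and with each array left out, where a value was given. That of Mboat7 did not turn, but with the replicate number as a block its difference was -5.0e-10, in effect 0. Of the 10 signs, 5 turned in at least 1 (Lpcat2, Lpcat4, Mboat2, Pla2g6 and Pla2g12b).

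**Figure D4:**
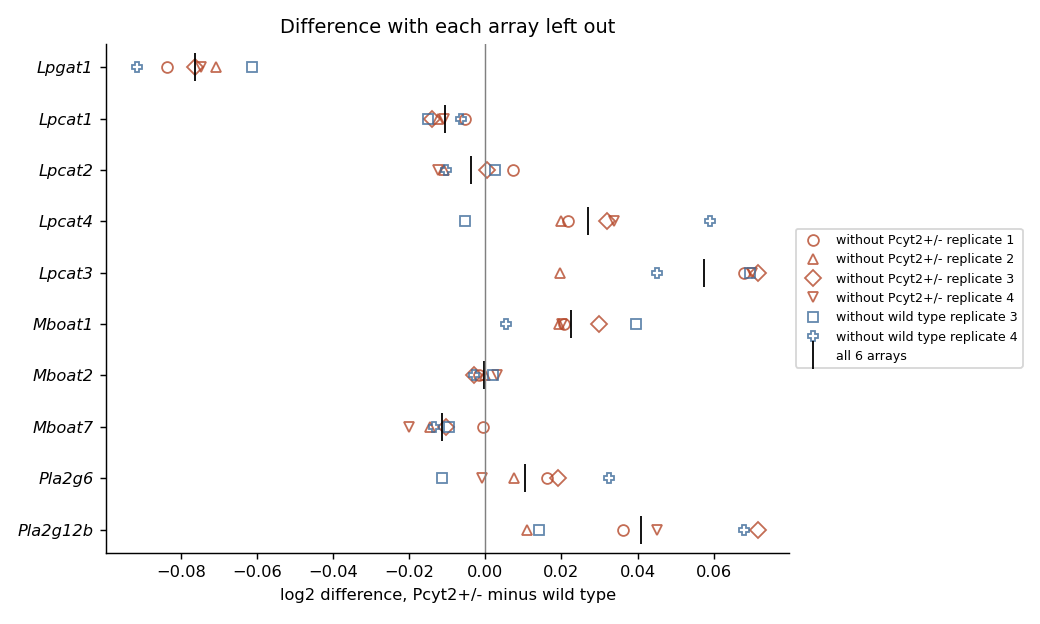
Log2 difference, Pcyt2+/- minus wild type (horizontal axis), of each enzyme with all 6 arrays (black bars) and with each array left out in turn (open symbols, red for Pcyt2+/- and blue for wild type arrays). Lpgat1 stays between -0.092 and -0.061, whereas Lpcat3 drops to 0.020 without Pcyt2+/- replicate 2.

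Other lysophospholipid and glycerophosphate acyltransferases were measured for 10 genes, and Agpat1 was not analysed here. None passed limma over all genes. At an unadjusted p under 0.05 there were 2 lower and 0 higher, beside 3.44% lower and 1.86% higher among all genes. There were 6 lower means, 4 higher means and a median of -0.0044. Agpat3, which acylates lysophosphatidic acid, had 5.299, 5.334, 5.170 and 5.310 in Pcyt2+/- and 5.350 and 5.454 in wild type, a difference of -0.12 (limma adjusted p = 0.924; -0.072 without wild type replicate 4). Gpat4, which starts glycerolipid synthesis, differed by -0.052, and Gpam, its mitochondrial counterpart, by -0.020 (-0.0071 without wild type replicate 4).

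Phospholipases A and lysophospholipases other than Pla2g6 and Pla2g12b were measured for 44 genes. Lipc, Pla2g4b and Enpp2 were not analysed here. By limma 0 passed over all genes, and the median was -0.0056. At an unadjusted p under 0.05, 2 were lower and 1 was higher, beside 3.44% lower and 1.86% higher among all genes. Plb1, phospholipase B, had 5.434, 5.472, 5.502 and 5.434 in Pcyt2+/- and 5.396 and 5.338 in wild type, higher on all 4 Pcyt2+/- arrays with a difference of 0.093 (limma adjusted p = 0.723). Plb1 has several probe sets, and over the mean of them its difference was 0.013 (unadjusted p = 0.26 by limma), so that its place in this count rests on the brightest one. Gde1, a glycerophosphodiesterase, differed by -0.073 (-0.030 without wild type replicate 4), and Plaat3, a phospholipase and acyltransferase, by -0.041. These counts lie near the background of all genes.

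**Figure D5:**
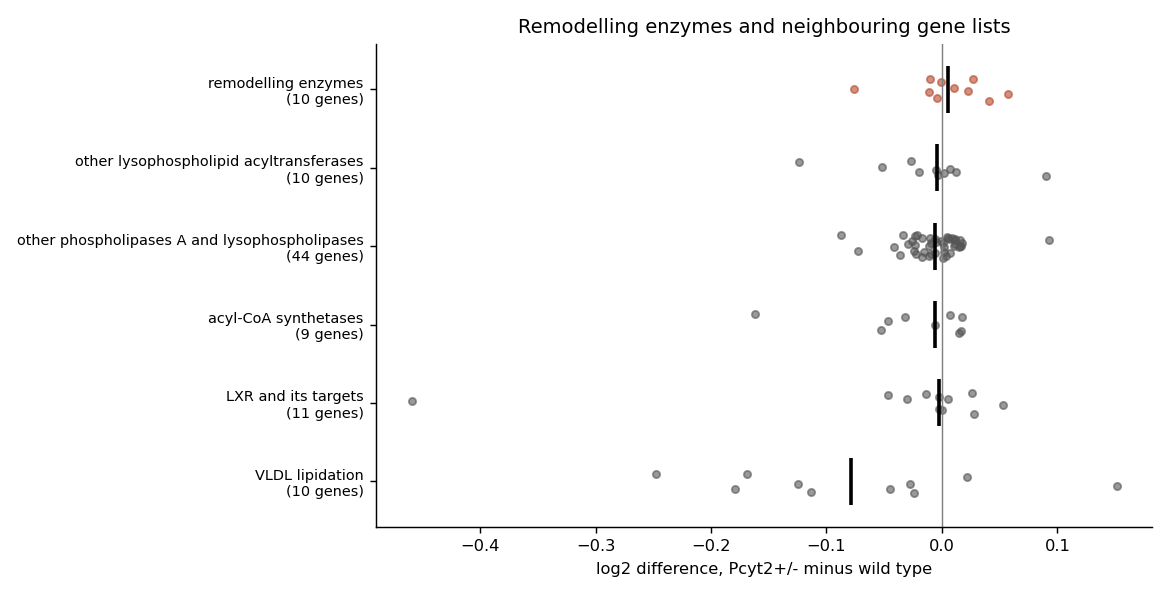
Log2 difference, Pcyt2+/- minus wild type (horizontal axis), of each gene in the 10 remodelling enzymes and in 5 neighbouring lists; points are genes, shifted at random up or down for clarity, and vertical bars are list medians. Medians lie between -0.0063 and 0.0050 except for VLDL lipidation at -0.079, a value that was 0.026 without wild type replicate 4.

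Acyl-CoA synthetases, which activate the fatty acids used for remodelling, were measured for 9 genes, with 0 past limma over all genes and a median of -0.0063. At an unadjusted p under 0.05, 1 was lower and 0 were higher, beside 3.44% lower and 1.86% higher among all genes. Slc27a1 differed by -0.032 (-0.015 without wild type replicate 3), Acsl5 by -0.052 and Slc27a4 by 0.016. Acsl1 and Acsl3 were not analysed here.

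LXR and its targets, the group that in mice includes Lpcat3, were taken as a list with 11 other genes measured. That list also holds Nr1h4 and Rxra, which encode other nuclear receptors, and Nr1h2 and Pltp were not analysed here. By limma 0 passed over all genes, and the median was -0.0022. At an unadjusted p under 0.05, 1 was lower and 1 was higher, beside 3.44% lower and 1.86% higher among all genes. Abcg8, a sterol exporter, had 4.962, 4.962, 4.908 and 4.946 in Pcyt2+/- and 4.904 and 4.879 in wild type, a difference of 0.053 (limma adjusted p = 0.872). Scd1, the stearoyl-CoA desaturase, differed by -0.46 (-0.18 without wild type replicate 3) and Abca1, the cholesterol exporter, by 0.028. Members of this group thus lay on both sides of 0. Nr1h3, which encodes LXR alpha, differed by -0.014.

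Genes of VLDL lipidation, the process in which Pla2g12b takes part, were measured for 10 genes, of which 8 had a mean above 5. By limma 0 passed over all genes, at an unadjusted p under 0.05 there were 2 lower and 0 higher, and the median was -0.079, with 8 lower and 2 higher means. That median was -0.15 without wild type replicate 3 and 0.026 without wild type replicate 4. Apob, the protein of VLDL, had 9.092, 9.107, 9.145 and 9.074 in Pcyt2+/- and 9.312 and 9.234 in wild type, lower on all 4 Pcyt2+/- arrays with a difference of -0.17 (limma adjusted p = 0.321). P4hb, the disulfide isomerase that pairs with Mttp, differed by -0.11 (-0.065 without wild type replicate 4 and -0.058 with quantile normalization), and Mttp, the triglyceride transfer protein, by 0.022. Hnf4a, a hepatocyte transcription factor, differed by -0.25, and by 0.038 without wild type replicate 4.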

How the data were processed

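Liver RNA was isolated by TRIzol and column and hybridised as biotinylated cRNA to Affymetrix arrays, per the labels' protocols. The authors deposited log2 expression for every probe set, for which the submitters' processing notes name RMA. Neither its version nor a genome build was given in the sources used here. The value table held 28996 probe sets on 6 arrays: 21218 with 1 gene symbol in the platform annotation, 1881 with several and 5897 unnamed here. Rows with 1 symbol entered, and the row with the highest mean over the 6 arrays stood for a gene. A probe set with several symbols that include Lpcat3 was not used. Arrays have no sequencing depth, and their number limits the precision.

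Group differences come from limma (version 3.58.1, R version 4.3.3, functions lmFit and eBayes, two-sided, no covariates, Benjamini-Hochberg over 18820 genes, threshold 0.05). Titles number separate mice. The steps were tested on simulated data of 18820 genes for this comparison, where 93.9% of the 95% intervals held the true change. Summaries and plots were made in Python (3.11.15) using pandas 2.3.3, numpy 2.4.6 and matplotlib 3.10.9. Other settings were filters on dim genes, the mean of a gene's rows, every row, quantile normalization, a subtracted floor, a trended and robust prior, a replicate block and each array left out.

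The enzymes, lists, settings and naming rule were chosen with earlier results of these data known, so the lists' directions are not independent evidence. The rule named all 10 enzymes, Pcyt2, up to 3 genes of each list by unadjusted p, and the 3 genes nearest to each enzyme with a mean above 5. Mttp and Nr1h3 were named outside it, after their values were seen. Markers of 8 cell types were checked. Promoter windows came from RefSeq (GRCm38.p6), and all 10 enzymes matched by symbol.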

Additional observations from a re-analysis of the deposited data

Results flagged for a closer look

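The arrays of the Pcyt2+/- group were searched for values far from the other 3 in 26 genes, the 10 enzymes, Pcyt2 and the 15 named list genes, using Dixon's critical value of 0.829 for 4 samples, and 2 were found. Lpcat3 was high on the array of Pcyt2+/- replicate 2, at 5.374 against 5.218 to 5.229 on the other 3 arrays of the group, a gap of 0.925 of the range. Mboat1 was low on the array of Pcyt2+/- replicate 3, at 4.317 against 4.345 to 4.349 on the other 3, a gap of 0.875 of the range. Chance flags about 1 in 20 such groups.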

How the results depend on the processing

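None of the 10 enzymes passed limma over all genes in any of the 14 other settings run (lowest adjusted p = 0.332, Lpgat1 with a trended and robust prior). The median over the enzymes moved by less than the spread between arrays and ran from -0.0017 to 0.012 with an array left out. Lpgat1 was the 1 enzyme with an unadjusted p under 0.05 by limma, also with each Pcyt2+/- array left out. With a mean above 5, 0 of 1 tested enzymes had such a p, and with a mean above 4.6, 0 of 2. Lpgat1, with a mean of 4.513, was not tested under these filters. Counts of genes called over all genes were 3 (mean above 5), 2 (floor subtracted), 9 (trended and robust prior) and 0 to 9 (an array left out), against 0 as reported. With the replicate number as a replicate block, 2 genes were called, Lpcat2 had 0.0024 and Pla2g12b -0.011, and the median of other lysophospholipid acyltransferases was -0.023, while Mboat7 lay at nearly 0. That block rests on the 4 arrays numbered 3 and 4, since numbers 1 and 2 occur only in Pcyt2+/-. The deviations of same-numbered arrays from their group means correlated at 0.15 (3) and 0.072 (4). Differently numbered arrays of the 2 groups correlated at -0.19 to 0.19, and there were too few pairs to show pairing.

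With an array left out, signs turned for Lpcat2 (-0.013 to 0.0073), Lpcat4 (-0.0054 to 0.059), Mboat2 (-0.0031 to 0.0031), Pla2g6 (-0.011 to 0.032) and Hnf4a (-0.53 to 0.038). Some list medians moved by more than the spread between arrays. With an array left out these were VLDL lipidation (-0.15 to 0.026), acyl-CoA synthetases (-0.015 to -0.00073) and phospholipases A and lysophospholipases (-0.0072 to -0.0022). So did VLDL lipidation with the floor subtracted (-0.15) and other lysophospholipid acyltransferases with the replicate block (-0.023). The Pcyt2 difference stayed lower and did not pass in any setting run, from -0.24 to -0.15 with an array left out. With the floor subtracted it was -0.97 (limma adjusted p = 0.239), larger than the -0.20 on the deposited scale. Above the array medians on the linear scale, Pcyt2 had 3.85 ± 0.48 units in Pcyt2+/- (SD, n = 4) and 7.56 ± 1.22 units in wild type (SD, n = 2). Its limma adjusted p was 0.053 with a trended and robust prior. The cause of these shifts was not tested. Fits without 1 wild type array assume that the other varies like the Pcyt2+/- arrays. Signals near the array medians limit 8 of the 10 enzymes, and with the floor subtracted 6 were at the minimum on every array and gave no value.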

Other observations

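Windows around the start sites of the 10 enzymes (11 windows) held 54.7% to 79.7% G and C, beside a median of 52.7% over all 32851 windows. The CCAAT box was in 5 of the 11 windows (Lpcat2, Lpcat3, Mboat1, Mboat2 and Pla2g6) on either strand, beside 37.4% of all, and TATAAA was in 1 of 11 (Lpcat2), beside 13.6% of all.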
